A study of Mus musculus with 6 samples.

Results

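The genes described here are the NRF2 and glutathione antioxidant genes, a set of 42 genes picked by name from the 41819 genes of the deposited table. The rule names the genes and uses no measured value, although the set was drawn up with earlier results of these data known. The RNA came from mouse 3T3 cells, an embryonic fibroblast line whose cell type the labels give as malignant. The cells had been transduced with a lentivirus carrying human PARG (hPARG) and the nucleus-targeted fluorescent protein mClover3 under a doxycycline-inducible TetOne promoter. PARG is the enzyme that takes apart poly(ADP-ribose). Libraries 1 to 3 of the control group (genotype label control) came from cells grown for 72 h with no doxycycline, and libraries 1 to 3 of the hPARG group (genotype label PARG overexpression) from cells given 500 ng/ml doxycycline for the same time. Both groups carry the cassette, the methods describe the line as a clone selected with puromycin, and no library holds doxycycline-treated cells without the cassette, so that an effect of doxycycline cannot be told apart from that of hPARG. The table lists mouse genes and has no row for the cassette.

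NRF2, the product of Nfe2l2, is a transcription factor that the adaptor protein KEAP1 holds at a low level by sending it for destruction. Electrophiles and oxidants modify KEAP1, NRF2 then builds up, and it binds antioxidant response elements near genes for glutathione synthesis, thioredoxin reduction, NADPH supply, quinone and heme breakdown and iron storage. Glutathione and thioredoxin pass electrons from NADPH to peroxidases and peroxiredoxins, which reduce hydrogen peroxide and lipid peroxides. Fibroblasts in culture use these systems against the peroxide of their own respiration. Several members, among them the superoxide dismutases, catalase and some peroxiredoxins, are expressed at a basal level without NRF2.

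The core of the antioxidant response element, TGACNNNGC, was searched on both strands of the RefSeq promoter windows of GRCm38, each from 250 bases before to 50 bases after a start site, because it is the sequence through which NRF2 acts. It was present in 11 of the 36 members that have a window (30.6%), against 2959 of the 20091 genes of the table with a window (14.7%). The members were picked by name as NRF2 and antioxidant genes, so that this difference is no test of the set. The motif overlaps the AP-1 motif TGACTCA, and counted by window rather than by gene it was in 11 of the members' 46 windows (23.9%) and in 4071 of all 32851 (12.4%). The 11 members were Nfe2l2, Srxn1, Gstm5, Gclm, Prdx1, Pgd, Mgst1, Me1, Txnrd1, Sod1 and G6pdx. Hmox1, Gclc, Gsr, Gsta4, Prdx6 and Sod3 have no window in the table used here, and the windows of Nqo1, Ftl1 and Fth1 held no match. A match describes letters in these windows and is not a measured binding site. The 5 stretches that follow are shown for the member with the largest difference between the groups, for the regulator and for 3 members from other branches of the system, each on the strand of its gene with the motif in capitals.
Gstm5, chr3:107895802-107895831, plus strand: caccgcccacTGACCACGCggagggcgggt
Nfe2l2, chr2:75704884-75704913, minus strand: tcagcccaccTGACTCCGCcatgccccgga
Txnrd1, chr10:82859104-82859133, plus strand: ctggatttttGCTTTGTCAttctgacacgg
Me1, chr9:86695901-86695930, minus strand: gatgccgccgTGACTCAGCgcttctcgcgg
Prdx1, chr4:116685456-116685485, plus strand: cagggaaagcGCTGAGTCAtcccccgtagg
In Txnrd1 and Prdx1 the motif is on the strand opposite to the gene, so that its reverse complement is printed. Txnrd1 has 3 windows, of which 1 held the motif. That stretch lies inside the gene, which begins at chr10:82833951, and so belongs to a later start site. The stretches of Me1 and Prdx1 also hold the AP-1 motif.

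The libraries held between 21619908 and 25263818 counts, and 3 counts, taken as the floor of detection, were worth between 0.119 and 0.139 CPM (counts scaled to the size of the library). The libraries numbered 2 stood apart from the others of both groups on the first principal component, which held 41.99% of the variance, at 21.6 and 24.7 against −27.4 to −3.17 for the other 4. The summed level of 8 fibroblast markers was 7157 to 9479 CPM, of which Vim alone stood at 3372 to 4025 CPM. The fibroblast marker Pdgfrb was low, at 3.05 to 5.32 CPM. The 6 macrophage markers summed to 5.29 to 9.25 CPM, most of it from Lyz2 at 4.20 to 7.65 CPM, and Adgre1 was at 0 throughout. The 4 endothelial markers summed to 0.742 to 1.37 CPM and the 5 epithelial markers to 0.039 to 0.518 CPM.

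Most antioxidant genes lay below their group mean in library 2 of each group, with a median deviation of −0.19 on the log2 CPM scale in control 2, where 32 of the 40 members that passed the filter on low counts were below it, and −0.175 in hPARG 2, where 29 of 40 were. The medians over all tested genes were 0.0063 and 0.015 in the same libraries. The glutathione transferase gene Mgst3 had deviations of −0.70 and −0.54, the quinone reductase gene Nqo1 of −0.54 and −0.47, and the lipid peroxidase gene Gpx4 of −0.42 and −0.48. The low values were more frequent among members with short exons. Of the 20 members with the shorter exon length (median 1550.5 bases) 20 were below their group mean in control 2 and 19 in hPARG 2, with median deviations of −0.254 and −0.264, and of the 20 longer (median 3909 bases) 12 and 10 were. Some longer members were also low, such as the peroxiredoxin gene Prdx2 (3050 bases) at −0.36 and −0.43. Across the 40 members, which share these libraries and are not independent, Spearman's rho between deviation and exon length was 0.57 in control 2 and 0.58 in hPARG 2, and over all tested genes it was 0.53 and 0.52. In libraries 1 and 3 rho was negative, at −0.23 and −0.58 in control and −0.37 and −0.59 in hPARG over the members. Over all tested genes it was −0.25 and −0.51 in control and −0.47 and −0.32 in hPARG. Deviations from a mean of 3 libraries are tied to each other, so they cannot show which library departs. A fit with exon length and GC offsets left no member called, and Gstm5 then had an FDR of 0.0672 by edgeR.

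**Figure D1:**
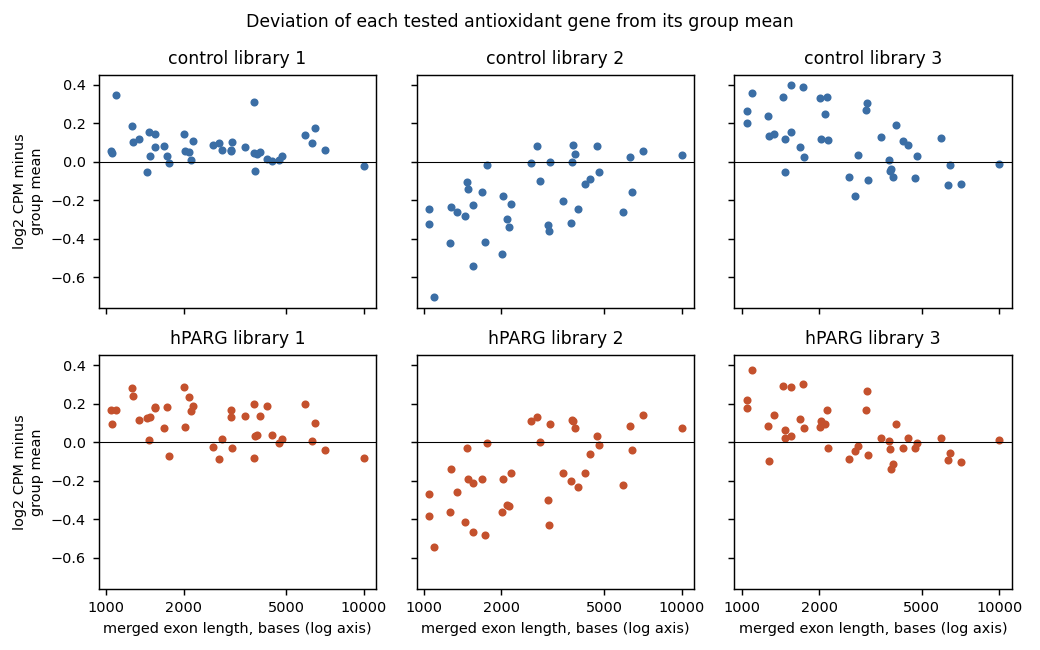
Deviation of each tested antioxidant gene from its group mean (y axis, log2 CPM) in each of the 6 libraries, against its exon length (x axis, log scale, bases). The points of the 20 shorter genes lie almost all below 0 in both libraries, and those of the longer genes lie around 0.

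The levels of the members ran from some of the most abundant RNAs of these cells to RNAs at the floor of detection. Together they held 1.61%, 1.34% and 1.62% of the counts of control libraries 1 to 3 and 1.53%, 1.28% and 1.47% of those of the hPARG libraries, of which the 2 ferritin genes held between 0.636% and 0.85%. Compared per length, as RPKM (the deposited read count per gene, scaled by gene length and library size), mean levels over the 6 libraries spanned a ratio of 753 between the highest and the lowest tested member. The level was above 100 RPKM for 16 members, between 10 and 100 for 19 and at or below 10 for the other 5 tested members. Ftl1, the ferritin light chain, stood first at 3310 RPKM and ranked 5 of all 41819 genes, followed by the heavy chain Fth1 at 2268 RPKM (rank 16), the thioredoxin gene Txn1 at 637 (rank 106) and the transferase gene Gstp1 at 617 (rank 107). The order of Txn1 and Gstp1 is not separated by the spread over libraries. Parts of 3 of these levels may hold reads of other genes, since 34.4% of the 100-base words of Ftl1, 25.2% of those of Gpx4 and 25.1% of those of Gstp1 also occur in pseudogenes or close copies such as Ftl1-ps1, Gpx4-ps2 and Gstp2. Of the words of Sod2 12.8%, and of those of Me1 12.3%, also occur in other genes.

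Below them came the copper and zinc superoxide dismutase gene Sod1 at 308 RPKM, the peroxiredoxin genes Prdx4 at 255 and Prdx2 at 222, and Gpx4, whose product reduces lipid peroxides, at 227. Of the transferases Gsto1 stood at 147 RPKM and Gsta4 at 130, and Gpx1, the most widely expressed glutathione peroxidase, at 133. At the low end were Gss, glutathione synthetase, at 8.20 RPKM, the mitochondrial superoxide dismutase gene Sod2 at 7.99, the membrane-bound transferase gene Mgst3 at 6.55, the secreted superoxide dismutase gene Sod3 at 4.84 and the mitochondrial thioredoxin reductase gene Txnrd2 at 4.39. The level of Sod2 is low per length, over 10008 exon bases, and its mean CPM was 82.7 in control and 82.0 in hPARG. The 2 members that did not pass the filter were Gpx3, the secreted glutathione peroxidase, where control libraries gave 3, 1 and 8 counts and hPARG libraries 1, 5 and 3, and Gpx7, a peroxidase of the secretory pathway, with 0 counts in every control library and 1, 1 and 0 in the hPARG libraries.

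**Figure D2:**
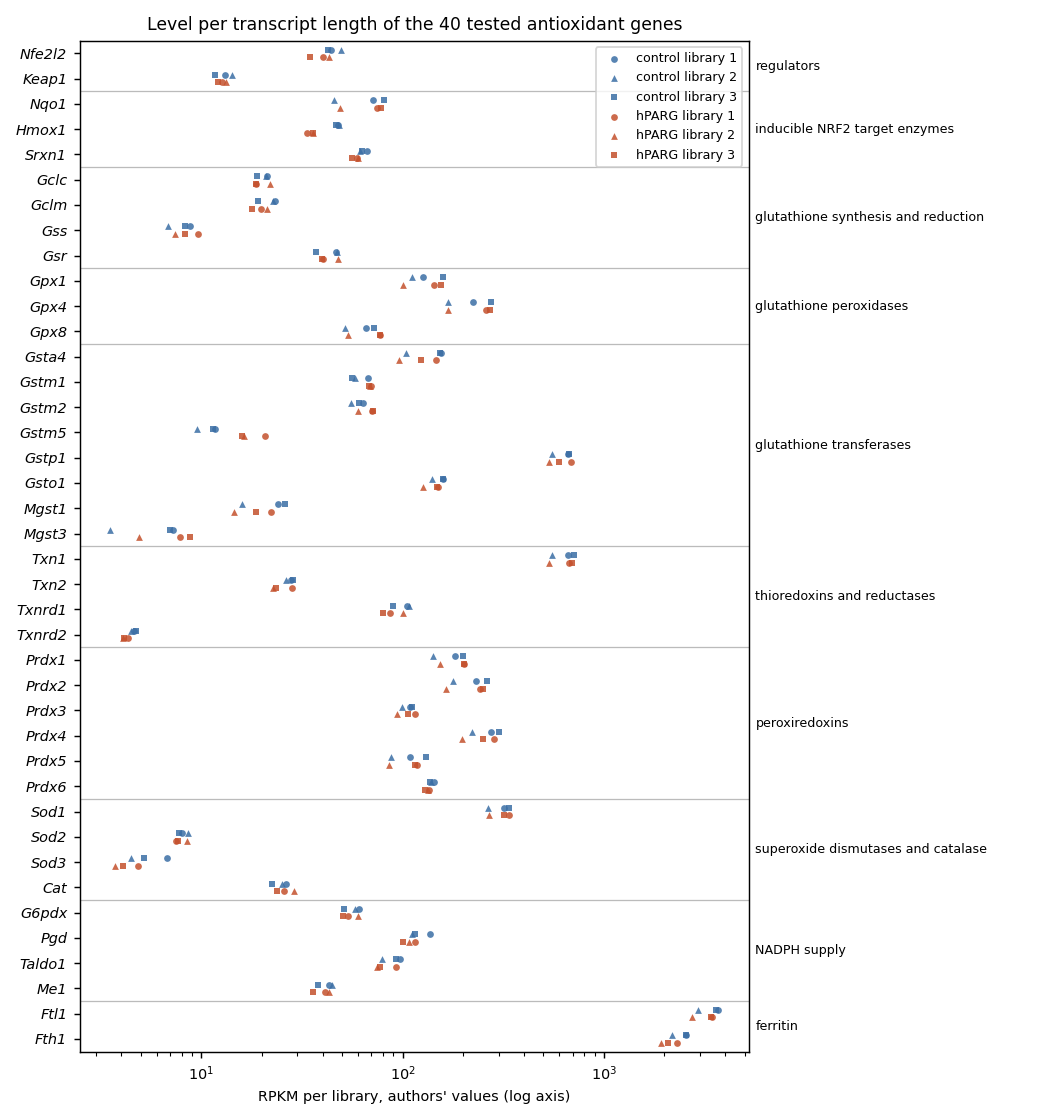
Level of each antioxidant gene in the 6 libraries (x axis, RPKM, log scale), grouped by role, with control and hPARG libraries in different colours. The ferritin genes stand far above the rest, and for nearly all genes the points of the groups lie on top of each other.

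The comparison of hPARG with control asked whether the induced PARG altered the RNA level of the antioxidant system. No member passed the test in either direction (edgeR's quasi-likelihood test, Benjamini-Hochberg over 11509 genes, FDR under 0.05), beside 0.00869% of all tested genes called higher and 0.0782% called lower, and the lowest FDR among the members was 0.419. At an unadjusted p under 0.05, 1 of the 40 tested members was higher, Gstm5 (1.42% of all genes), and 1 was lower, Hmox1 (2.54% of all genes). All hPARG libraries lay above all control libraries for 2 members (3.61% of all genes) and below them for 2 (6.00% of all genes). With exon length and GC offsets the groups did not overlap for Gstm5 and Prdx1, both higher (4.88% of all genes higher and 5.79% lower), whereas those of Hmox1, Nfe2l2 and Gstm1 overlapped. DESeq2, run as another tool, called Gstm5 higher (FDR 0.0146, with 0.113% of all genes called higher) and Hmox1 lower (FDR 0.0108, with 0.339% called lower). With both libraries numbered 2 left out, a setting chosen after the data were seen, Gstm5 was called (log2 fold change 0.70, FDR 0.0371 by edgeR, with 0.104% of all genes called higher), Hmox1 stood at −0.42 (FDR 0.142 by edgeR), and the median of the members was −0.036. The differences between the groups were small. The median log2 fold change over the 40 members was −0.013, beside 0.0038 over all tested genes. Of the members 15 were above 0 and 25 below, beside 5863 and 5646 of all tested genes. In 33 members the difference was less than 0.2 on the log2 scale. The median size of the log2 fold change was 0.103 over the members and 0.093 over all tested genes. In bulk RNA a smaller amount of RNA per cell and fewer cells with that RNA cannot be told apart.

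These libraries bound the change of most members. For 38 of the 40 the 95% interval of the fold change lay within 2-fold in either direction, and for 31 it lay within 1.5-fold. The exceptions to the former were Gstm5 and Mgst3. A test that is not passed does not show that a gene stayed the same.

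**Figure D3:**
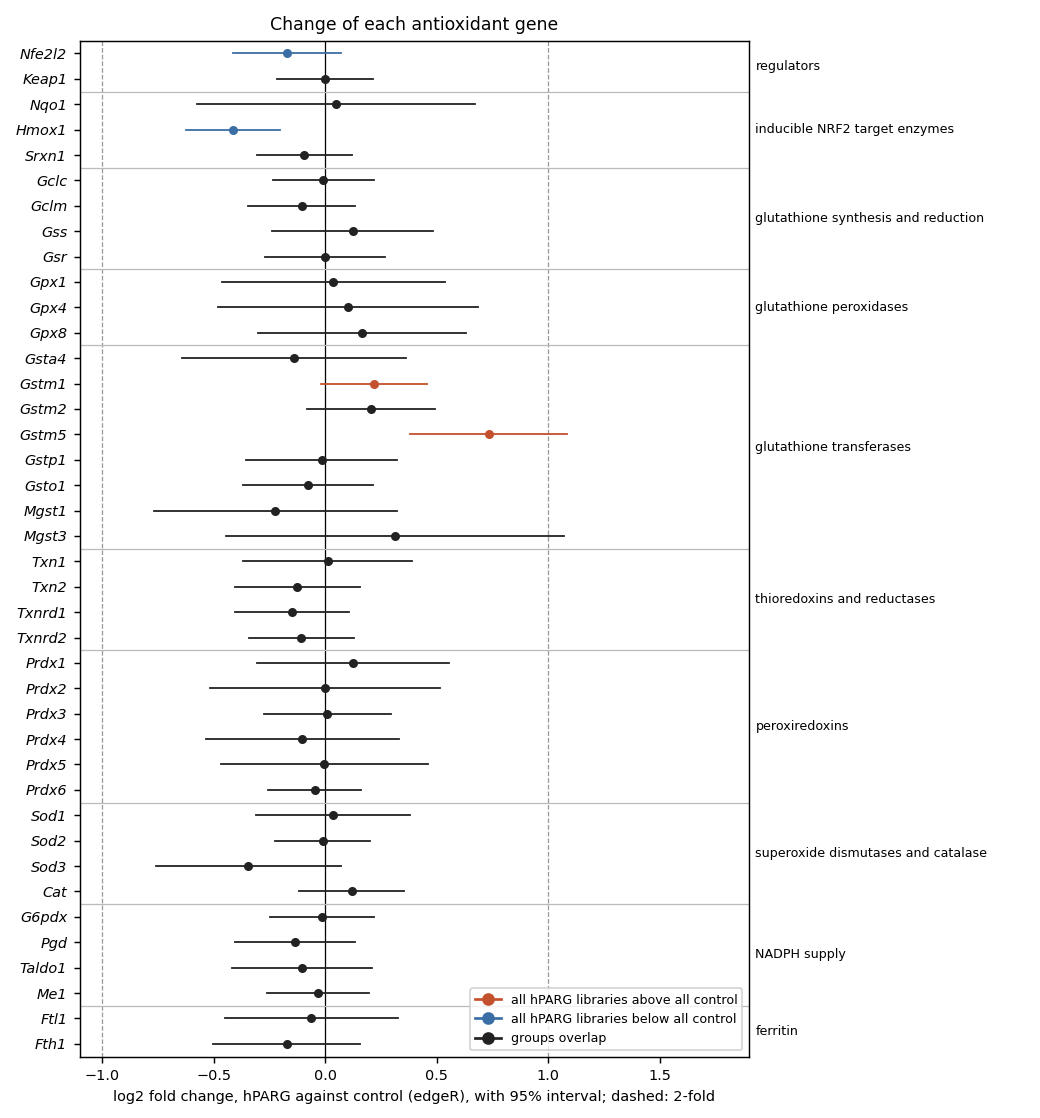
Log2 fold change of hPARG against control for each tested antioxidant gene (points, edgeR) with its 95% interval (lines), ordered by role, with dashed lines at 2-fold. Of these intervals, those of Gstm5 and Hmox1 do not reach 0, and colour marks the 4 genes whose groups do not overlap.

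The regulators came first in the order of the pathway. Nfe2l2 (NRF2, chr2:75675513-75704641) was measured at 116, 128 and 117 CPM in the control libraries and at 109, 115 and 96.8 CPM in the hPARG libraries. On the CPM scale, without the offsets, each hPARG library was lower than each control library, with hPARG 2 at 115 CPM close under the lowest control. The log2 fold change was −0.17 (SE 0.104, FDR 0.999 by edgeR). Keap1, its inhibitor (chr9:21229730-21239361), stood at 63.1, 66.4 and 59.1 CPM in control and 62.7, 64.3 and 61.5 CPM in hPARG, and the groups overlapped fully. Its log2 fold change was −0.00098 (SE 0.0935, FDR 1 by edgeR), with a 95% interval of −0.22 to 0.22.

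Of the 3 inducible enzyme genes that are used as readouts of NRF2, Hmox1 was the member with the largest difference downward. Hmox1 encodes heme oxygenase 1, which breaks heme down to biliverdin, iron and carbon monoxide, and lies at chr8:75093621-75100589. It was measured at 80.1, 79.5 and 81.9 CPM in control and at 57.5, 60.2 and 63.5 CPM in hPARG. Without the offsets the groups did not overlap, and the control libraries lay close together (80.5 ± 1.26 CPM, SD, n = 3) above the hPARG libraries (60.4 ± 3.01 CPM, n = 3). The fold was 0.751 (log2 fold change −0.41, SE 0.0911, 95% interval −0.63 to −0.20), with an FDR of 0.468 by edgeR, so that it was not called. Hmox1 ranked 49 by p among the 11509 tested genes, and leaving out any library gave values from −0.45 to −0.38. Neither of the other readouts was called. Srxn1, sulfiredoxin, which repairs overoxidized peroxiredoxins, had a log2 fold change of −0.093 (SE 0.0923), and Nqo1, the quinone reductase, of 0.050 (SE 0.269).

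Glutathione synthesis and reduction showed no call. Gclc, the catalytic subunit of glutamate-cysteine ligase and the rate-limiting step, had a log2 fold change of −0.0088 (SE 0.0975) and Gclm, its modifier subunit, of −0.11 (SE 0.103). Gss, which adds the glycine, was at 0.12 (SE 0.155), and Gsr, glutathione reductase, at −0.00055 (SE 0.116). Of the exon bases of Gss 15.4% overlap genes on the other strand, among them Acss2.

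The tested genes of the glutathione peroxidase family were also without a call. Gpx1 stood at 0.036 (SE 0.216), Gpx4 at 0.10 (SE 0.252) and Gpx8, a peroxidase of the endoplasmic reticulum, at 0.17 (SE 0.201) on the log2 fold change scale. All of them lay below the group mean in both libraries numbered 2.

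The transferases, which join glutathione to electrophiles, held the largest difference upward. Gstm5 (chr3:107895821-107898686) was measured at 16.0, 12.6 and 16.3 CPM in control and at 29.2, 22.4 and 23.1 CPM in hPARG. Every hPARG library lay above every control library. The mean was 14.99 ± 2.03 CPM (SD, n = 3) in control and 24.9 ± 3.73 CPM (n = 3) in hPARG, a fold of 1.66 (log2 fold change 0.73, SE 0.152, 95% interval 0.38 to 1.09). The FDR was 0.419 by edgeR, which did not pass, and Gstm5 ranked 38 by p among the tested genes. Its RPKM was 10.9 in control and 17.7 in hPARG, under those of Gstm1 (64.8 over the 6 libraries) and Gstm2 (63.6), and leaving out any library gave 0.60 to 0.80. Of its exon bases 13.9% overlap 4933431E20Rik on the other strand, a gene listed at 0 in every library, and whether counting used strand is not stated.

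The mu-class neighbours Gstm1 (chr3:108012255-108017973) and Gstm2 (chr3:107981702-107986453) lie on the same stretch of chromosome 3. Gstm1 stood at 101, 84.4 and 87.5 CPM in control and 107, 104 and 107 CPM in hPARG. Without the offsets the groups did not overlap, but control 1 came close to the hPARG libraries, and the log2 fold change was 0.22 (SE 0.103, FDR 0.999 by edgeR). Gstm2 was at 81.1, 68.7 and 80.9 CPM in control and 92.8, 77.3 and 95.9 CPM in hPARG, with hPARG 2 inside the range of control and a log2 fold change of 0.21 (SE 0.123, FDR 0.999 by edgeR). Of the transferases of other classes, Gstp1, at 634, 515 and 670 CPM in control and 674, 515 and 610 CPM in hPARG, had a log2 fold change of −0.016 (SE 0.146). Gsta4, which acts on 4-hydroxynonenal, was at −0.14 (SE 0.217), Gsto1, the omega-class member, at −0.077 (SE 0.126), and the microsomal members Mgst1 at −0.22 (SE 0.235) and Mgst3 at 0.31 (SE 0.328). Mgst1 ran from −0.43 without control 2 to −0.052 without control 3, and Mgst3 from 0.037 without control 2 to 0.54 without hPARG 2. None of the 8 transferases was called.

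**Figure D4:**
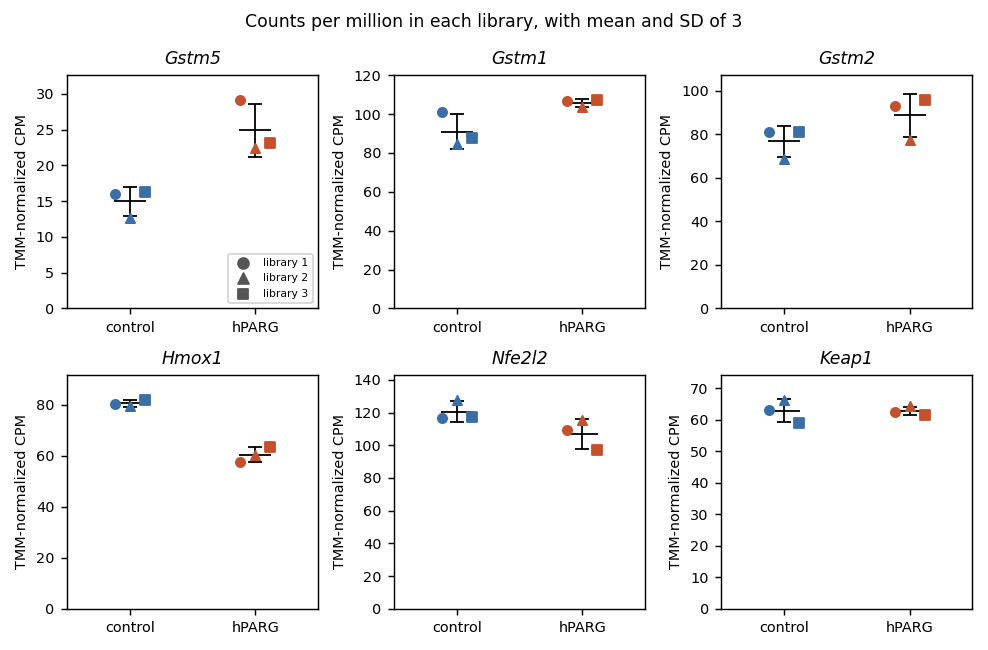
TMM-normalized CPM of 6 antioxidant genes in each library (points, marked by library number) with the mean and SD of 3 libraries per group. The hPARG points of Gstm5 lie above all control points and those of Hmox1 below, whereas those of Keap1 lie inside the control range.

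Thioredoxins reduce protein disulfides and pass electrons to the peroxiredoxins. Txn1 stood at 746, 609 and 831 CPM in control and 776, 604 and 823 CPM in hPARG, a log2 fold change of 0.01 (SE 0.163). Txnrd1, the cytosolic thioredoxin reductase (chr10:82833951-82897712), was at 459, 457 and 407 CPM in control and 387, 439 and 369 CPM in hPARG. Its ranges overlapped through hPARG 2, with a log2 fold change of −0.15 (SE 0.111, FDR 0.999 by edgeR). The mitochondrial Txn2 was at −0.12 (SE 0.121) and Txnrd2 at −0.11 (SE 0.102) on the same scale. The 6 peroxiredoxin genes, whose products reduce hydrogen peroxide through a cysteine, lay between −0.10 for Prdx4 (SE 0.186), the member of the endoplasmic reticulum, and 0.12 for Prdx1 (SE 0.185), a cytosolic member. Prdx2 (0.00027, SE 0.223), Prdx3 (0.0098, SE 0.122), Prdx5 (−0.0031, SE 0.2) and Prdx6 (−0.046, SE 0.09) stood between them. Of the exon bases of Prdx5 and Prdx2 19.1% and 11.5% overlap expressed genes on the other strand.

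Among the superoxide dismutases, Sod3 had the largest difference. It was at 26.9, 17.4 and 21.8 CPM in control and 19.8, 15.001 and 17.3 CPM in hPARG, with overlapping ranges and a log2 fold change of −0.34 (SE 0.179, FDR 0.999 by edgeR), which ran from −0.49 without control 2 to −0.17 without control 1. Sod1 was at 0.035 (SE 0.15) and Sod2 at −0.011 (SE 0.0916), and Cat, catalase, which splits hydrogen peroxide, at 0.12 (SE 0.101). The 4 genes for enzymes that make or feed NADPH were G6pdx, the first step of the pentose phosphate pathway (−0.015, SE 0.1), Pgd, a later oxidative step (−0.14, SE 0.116), Taldo1, transaldolase (−0.10, SE 0.136), and Me1, malic enzyme (−0.032, SE 0.0984). None of these 8 genes was called. Of the exon bases of G6pdx 13.6% overlap the expressed gene Ikbkg on the other strand.

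Ferritin stores iron in a form that cannot drive peroxide chemistry, and its genes are also NRF2 targets. Fth1 (chr19:9980598-9985098) was at 4451, 3667 and 4607 CPM in control and 4124, 3358 and 3804 CPM in hPARG, a log2 fold change of −0.17 (SE 0.143, FDR 0.999 by edgeR). Ftl1 (chr7:45457944-45459884) was at 3926, 3024 and 4006 CPM in control and 3762, 2903 and 3829 CPM in hPARG, a log2 fold change of −0.06 (SE 0.167). In both genes the lowest library of each group was the one numbered 2.

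The wider pathway was read from a list of 87 other genes of the table that act in glutathione, thioredoxin, iron and NRF2 control, of which 70 passed the filter. None was called by edgeR (0.00869% of all genes higher, 0.0782% lower), and at an unadjusted p under 0.05, 1 was higher and 4 were lower (1.42% and 2.54% of all genes). The hPARG libraries lay above all control libraries for 1 of the 70 (3.61% of all genes) and below them for 8 (6.00% of all genes). The median log2 fold change was −0.023, with a range of −1.16 to 0.64. Txnip, which inhibits thioredoxin and is a gene the study itself picked from these samples, was at 134, 267 and 222 CPM in control and 105, 85.8 and 87.1 CPM in hPARG, with the hPARG libraries below every control library, a log2 fold change of −1.16 (SE 0.238, FDR 0.419 by edgeR). Sqstm1, the adaptor p62 that binds KEAP1, stood at 950, 984 and 1059 CPM in control and 819, 765 and 713 CPM in hPARG (−0.38, SE 0.108, FDR 0.821 by edgeR). Slc11a2, an iron transporter, was at 61.8, 69.7 and 69.3 CPM in control and 52.8, 56.8 and 53.7 CPM in hPARG (−0.30, SE 0.0978, FDR 0.976 by edgeR). These 3 genes are among the 8 whose hPARG libraries lay below, and DESeq2 called Txnip (0.339% of all genes lower), and no other gene of this list.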

How the data were processed

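Poly(A) RNA of 6 libraries, 3 control and 3 hPARG, was analysed. The labels describe wells of a plate and the methods dishes, so the p-values measure the spread between these cultures. The authors mapped paired-end reads to GRCm38 with the Ensembl annotation in CLC Genomics Workbench, and the methods do not say whether strand was used. Whole-number, unnormalized counts were deposited by the authors, together with RPKM values, whose library total is not stated and which served for levels only. Their CPM and TPM columns were not used, nor were those of their own comparison (fold changes, p-values, FDR, Bonferroni values and group means). Depth is 21619908 to 25263818 counts per library, and precision is set by 3 libraries per group. The smallest two-sided p of an exact permutation test is 0.1 at this group size.

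After filterByExpr (minimum count 10) and TMM scaling, edgeR's quasi-likelihood test was run with no block (edgeR 4.0.16 with limma 3.58.1, in R 4.3.3). Each SE is the size of the log2 fold change over the root of its F statistic. Alternatives were DESeq2 1.42.0, other scaling, no filter, a 2-fold threshold, a replicate block, exon length and GC offsets, each library left out, counts summed with close copies and, chosen after the data were seen, both libraries numbered 2 left out. The scripts were tested on simulated counts. Gene positions and overlaps came from GENCODE, in which all identifiers were found, and promoter windows from RefSeq (GRCm38.p6). Members and lists were chosen with earlier results of these data known. Values were given per library for Nfe2l2, Keap1, the 8 members with the lowest p, members whose groups do not overlap, the 4 most abundant, those that failed the filter and, from the wider list, the 3 genes with the lowest p.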

Additional observations from a re-analysis of the deposited data

How the results depend on the processing

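Genes called numbered 10, and 52 with DESeq2, 16 with no filter, 27 with exon length and GC offsets, 40 (0.345%) with both libraries numbered 2 left out, and 3 to 13 with any library left out (3 without hPARG 1, 5 without hPARG 3). Members called numbered 0, and 2 with DESeq2 (Gstm5, FDR 0.0146, and Hmox1, FDR 0.0108) and 1 (Gstm5, FDR 0.0371) with both libraries numbered 2 left out, and 0 to 0 with any library left out. DESeq2 called 1 gene of the wider list. Members whose groups do not overlap numbered 4 (3.61% of all genes higher, 6.00% lower), and 6 when scaled by library size only (Srxn1, Txnrd2 and Prdx6 in, Nfe2l2 out). The share of all genes was not computed for that scaling, where their median log2 fold change was −0.024. The 6 are therefore no result about the set. The cause of these shifts was not tested. The median member log2 fold change ran from −0.099 to 0.016 with a library left out. A 2-fold threshold gave the same counts.

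Same-numbered libraries deviated together with correlations of 0.0963, 0.61 and 0.168, and not every library correlated best with its own number, so the numbers were not taken to pair the libraries. A replicate block raised the genes called from 10 to 330 and the members from 0 to 2 (Gstm5, FDR 0.00111, and Hmox1, FDR 0.00301; 5% of the 40, beside 2.87% of all genes). The wider list went from 0 to 5 of its 70 tested genes (Bach2 higher, and Slc11a2, Sqstm1, Tfrc and Txnip lower). A replicate block with exon length and GC offsets called 327 genes (2.84% of all) and 2 members (5% of the 40). It called 7 of the 70 tested genes of the wider list, the same 5 with Msrb3 higher and Gsta1 lower.

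Direction turned in 20 members, all with a log2 fold change under 0.15 in size. Values that turned were Keap1 0.0044 (RLE), 0.0042 (DESeq2) and 0.027 (both libraries numbered 2 left out); Gsr 0.0043 (RLE and DESeq2), 0.00099 (block) and 0.023 (offsets, with and without block); Prdx5 0.0030 (RLE and DESeq2), 0.0045 (block), 0.0065 and 0.012 (offsets without and with block); Gclc 0.013 and 0.0099 (offsets without and with block); Txn1 −0.017 (library size), −0.0088 and −0.0084 (offsets without and with block); Prdx2 −0.027 (library size), −0.0014 (no filter) and −0.0052 (block); and Prdx3 −0.018 (library size). With a library left out, Keap1 ran from −0.044 to 0.040, Nqo1 from −0.17 to 0.26, Gclc from −0.070 to 0.032, Gsr from −0.084 to 0.053, Gpx1 from −0.11 to 0.22, Gpx4 from −0.081 to 0.32, Gsta4 from −0.32 to 0.020, Gstp1 from −0.12 to 0.082, Gsto1 from −0.16 to 0.013, Txn1 from −0.10 to 0.13, Prdx1 from −0.023 to 0.26, Prdx2 from −0.16 to 0.19, Prdx3 from −0.058 to 0.10, Prdx4 from −0.24 to 0.043, Prdx5 from −0.16 to 0.18, Sod1 from −0.078 to 0.14, Sod2 from −0.048 to 0.029, G6pdx from −0.065 to 0.043, Me1 from −0.072 to 0.023 and Ftl1 from −0.18 to 0.055.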
